A study of Mus musculus with 21 samples.

Results

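This comparison concerns 1 step of early myeloid development in mouse bone marrow, the step from the common myeloid progenitor (CMP) gate to the granulocyte-macrophage progenitor (GMP) gate, in cells with little or no CD62L on their surface. The members were the 3 CD62L-neg GMP libraries and the 3 CD62L-neg CMP libraries, 6 of the 21 RNA-seq libraries of the series, and they were taken from the sample labels. The labels name the CMP fraction CD62L-low CMP, which the study calls CD62L-neg CMP. All libraries came from sorted bone marrow progenitors of C57/B6 mice with no treatment and no transgene stated. GMPs were sorted as lineage-negative, Sca-1-negative, c-Kit-positive cells positive for CD16/32 and CD34, and CMPs as the same cells negative for CD16/32. The CD62L-neg fraction was the lowest part of the CD62L distribution in each gate, so neither sorted fraction was a clone or a pure cell type. CD62L-high GMPs and CD62L-high CMPs, with 3 libraries each, served as the same step in cells with CD62L. Whether the 3 libraries of a group stand for different animals is not stated in the labels, and the spread behind every p-value may therefore be technical.

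CMPs and GMPs are gates on a continuum of bone marrow progenitors. CMPs can give rise to megakaryocytes, red cells and myeloid cells, and GMPs mainly to granulocytes and monocytes. The CD16/32 antibody binds the Fc gamma receptors III and II, encoded by Fcgr3 and Fcgr2b, and CD62L is a homing receptor of the cell surface. Lineage choice in these cells is set in large part by transcription factors, with GATA1, FOG1 (Zfpm1) and KLF1 on the erythroid and megakaryocytic side, and PU.1 (Spi1) and the C/EBP family on the granulocytic and monocytic side. Because bulk RNA was measured, fewer cells of a type and less RNA per cell cannot be told apart in any of the values given here.

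The CD62L-neg GMP libraries held 12148893 to 12764020 counts and the CD62L-neg CMP libraries 7062317 to 7509818 counts. Levels are given as CPM, the count of a gene divided by the library total and scaled to a common size, after TMM, a method that corrects for a few very abundant transcripts. From 25.3% to 26.9% of the counts of CD62L-neg GMPs and 28.8% to 31.7% of those of CD62L-neg CMPs fell on 3 gene models that resemble ribosomal RNA. In the CD62L-high GMPs this share was 41.1% in replicate 1 and 29.5% and 27.8% in the other libraries, and replicate 1 also stood apart from its group in its counts overall. Results that use the CD62L-high step are therefore given with and without that library where it changes them. Within CD62L-neg CMPs, replicate 1 stood apart in a group of early progenitor genes. Flt3, a cytokine receptor of multipotent and lymphoid progenitors, had 59.0 CPM in CD62L-neg CMP replicate 1, against 7.46 and 4.16 CPM in the other CD62L-neg CMP libraries. Dntt, which encodes terminal deoxynucleotidyl transferase of early lymphoid cells, had 24.3 CPM there, against 1.57 and 0.277 CPM. Flt3 and Dntt were chosen after their values were seen.

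The genes of the sort were examined first, since they show whether the libraries match their gates. Fcgr3 had 152, 195 and 173 CPM in CD62L-neg GMPs, against 6.70, 9.03 and 9.01 CPM in CD62L-neg CMPs. Every GMP library lay far above every CMP library, with a log2 fold change of 4.39 ± 0.17 (SE derived from the test statistic, n = 3 each, edgeR adjusted p = 5.68e-12). Fcgr2b had 63.5, 68.7 and 65.8 CPM in CD62L-neg GMPs, against 14.7, 9.03 and 9.84 CPM in CD62L-neg CMPs, and its log2 fold change was 2.56 ± 0.20 (adjusted p = 3.05e-08). The 2 transcripts of the CD16/32 epitope thus differed in the direction of the gate. Kit, the receptor for stem cell factor used in both gates, had 289.7, 270.3 and 273 CPM in CD62L-neg GMPs, against 433, 377 and 424 CPM in CD62L-neg CMPs. It was lower in every GMP library by less than 2-fold (log2 fold change -0.57, adjusted p = 0.00453).

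Cd34 had 144, 162 and 153 CPM in CD62L-neg GMPs, against 141, 66.6 and 48.0 CPM in CD62L-neg CMPs. Its log2 fold change of 0.84 (adjusted p = 0.0218) was below 2-fold with all libraries and was 1.41 without CMP replicate 1, the library nearest to the GMPs. Of the lineage antigens, Itgam (CD11b) passed the test, with 10.3, 9.26 and 15.6 CPM in CD62L-neg GMPs, against 2.98, 1.57 and 0.970 CPM in CD62L-neg CMPs. Of the 11 tested genes of the sort list, 5 rose in CD62L-neg GMPs and 6 were not called. The parts of CD34 and CMP replicate 1 in the results that follow were not tested.

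**Figure D1:**
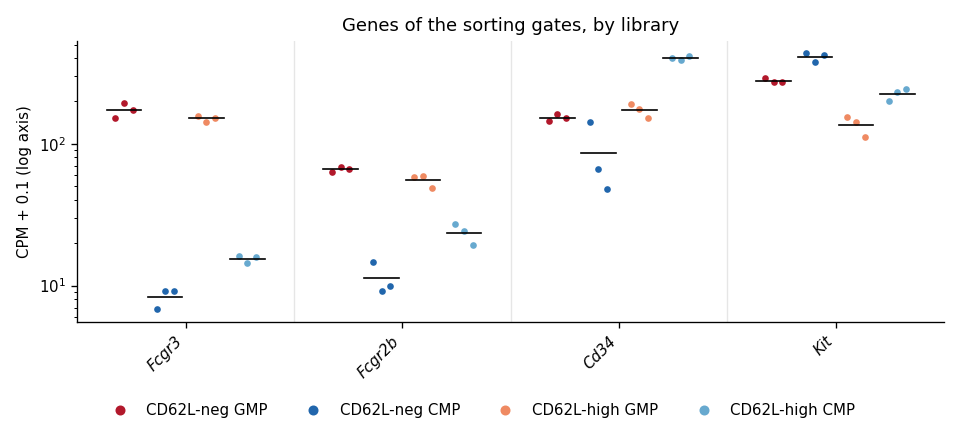
CPM plus 0.1 on a log axis for 4 genes of the sorting gates in the 3 libraries (points) of each population, with the group mean as a line. Fcgr3 lies at 152 to 195 CPM in CD62L-neg GMPs, against 6.70 to 9.03 CPM in CD62L-neg CMPs, while Cd34 of CD62L-neg CMP replicate 1 (141 CPM) reaches towards the GMP values.

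Across 14168 genes with enough counts to be tested, 957 were higher in CD62L-neg GMPs than in CD62L-neg CMPs (6.75% of genes tested) and 943 were lower (6.66%). The counts of called genes in the lists below are to be read beside these shares. Calls came from edgeR's quasi-likelihood test and required more than a 2-fold change together with a Benjamini-Hochberg p, adjusted over all genes tested, under 0.05. Of the genes called, 900 higher and 838 lower genes were protein coding. The libraries of the 2 groups did not overlap in 938 of the higher and 918 of the lower genes, and in 41.6% of all genes tested. The calls were made on these same libraries, so the larger share among called genes follows largely from the call and is not separate evidence. Leaving out each of the 6 libraries in turn, 692 of the higher and 593 of the lower genes kept their call every time. The changes were large, with a fold change over 8 in 234 higher and 303 lower genes, and with a median log2 fold change of 1.74 in the higher and -2.01 in the lower genes. The median over all genes tested was -0.0078.

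Over the 1000 genes with the largest spread, CD62L-neg GMP libraries lay at a mean distance of 57.42 ± 2.642 (SD, 9 pairs of libraries) from CD62L-neg CMP libraries on the scale of log2(CPM + 4), against 12.74 between CD62L-neg GMP libraries. Their mean distance was 50.06 ± 2.522 to CD62L-high GMPs and 47.19 ± 1.021 to CD62L-high CMPs, and it was 37.11 ± 2.178 to CD62L-int GMPs, 33.43 ± 1.553 to bulk GMPs and 51.15 ± 5.044 to bulk CMPs. The same step in CD62L-high cells spanned a smaller distance, 38.2 ± 2.235, with a mean of 40.24 for the CD62L-high GMP library that stood apart and 36.96 and 37.41 for the others. These pairs share libraries, so no test was made of the distances. The distance to bulk CMPs includes bulk CMP replicate 2, with 61% of its counts on the 3 gene models that resemble ribosomal RNA. Bulk CMP replicates 1 and 3 had 28% and 27.7%. The study excluded 1 bulk CMP sample for a low mapping rate without naming it. The part of replicate 2 in that distance and its spread was not tested. On principal components of the 12 libraries, the second component set CD62L-neg GMPs apart, at 38.66 ± 1.772 (SD, n = 3) against -9.198 ± 1.274 for CD62L-neg CMPs.

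**Figure D2:**
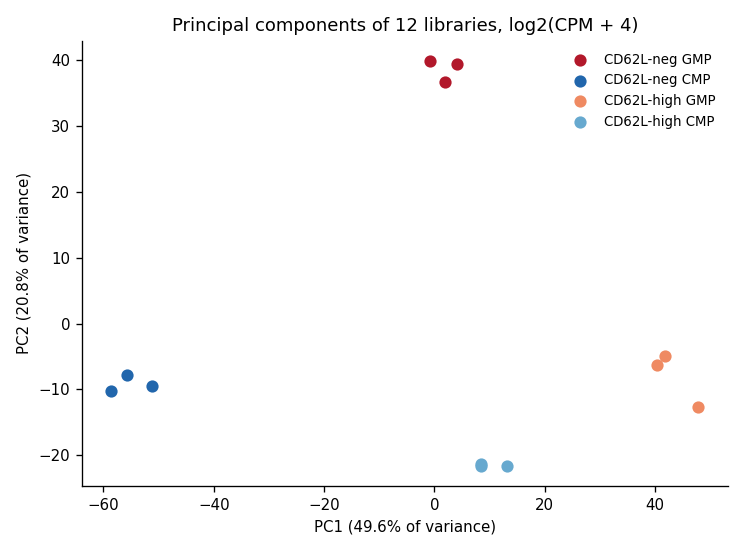
The first and second principal components of log2(CPM + 4), which hold 49.6% and 20.8% of the variance, for 12 libraries of 4 populations. The 3 CD62L-neg GMP libraries stand alone at a second-component mean of 38.66, against -9.198 for CD62L-neg CMPs, which lie at the low end of the first component with a mean of -55.17.

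Genes of eosinophils showed the largest median rise of the lists examined. Eosinophils store eosinophil peroxidase, major basic protein and cationic ribonucleases in their granules, and progenitors of eosinophils, basophils and mast cells pass through the GMP gate. Epx (eosinophil peroxidase; chromosome 11, 87864000 to 87875536, mm10) had 305, 432 and 378 CPM in CD62L-neg GMPs, against 0 CPM in each CD62L-neg CMP library. With 13865 counts in the 3 GMP libraries against 0 in the 3 CMP libraries, the level was at least 2833-fold higher, where the bound assumes 3 counts over the CMP libraries. Epx transcripts were thus found in every GMP library and in no CMP library. Prg2 (major basic protein) had 865, 1368 and 1029 CPM in CD62L-neg GMPs, against 1.37, 0.654 and 0 CPM in CD62L-neg CMPs (log2 fold change 10.59 ± 0.85, adjusted p = 4.72e-08). The lowest GMP library lay far above the highest CMP library. Prg3, its neighbouring paralog, had 42.3, 79.8 and 58.8 CPM in CD62L-neg GMPs, against 0 CPM in every CD62L-neg CMP library, at least 459-fold higher.

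The eosinophil-associated ribonucleases were also found in the GMPs. Ear6 had 17.2, 18.1 and 32.0 CPM in CD62L-neg GMPs, against 0 CPM in each CD62L-neg CMP library, at least 171-fold higher. Ear1 had 7.90, 9.90 and 14.9 CPM in CD62L-neg GMPs, against 0 CPM in CD62L-neg CMPs, at least 82.8-fold higher. Ear2 had 11.1, 16.6 and 10.4 CPM in CD62L-neg GMPs, against 0.372, 0 and 0 CPM in CD62L-neg CMPs, a ratio of 97.1 with a counting interval of 33.0 to 472 (95%, counting error only). The Ear genes are close copies of each other, so how their reads were split between them is uncertain. Of the 9 tested genes of the eosinophil list, 8 rose and 1 was not called, and the median log2 fold change was 10.03. The median was 6.50 with the 5 genes that had 0 counts in the CMPs at their bound. Genes with almost no counts in the other groups were tested only because of their counts in CD62L-neg GMPs. They could therefore only be called higher, and the count of 8 rests in part on them. The summed level of the list was 1298 to 1991 CPM in CD62L-neg GMPs, against 32.8 to 39.0 CPM in CD62L-neg CMPs.

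The receptors of the list behaved less uniformly than the granule genes. Siglecf, the surface lectin of mature mouse eosinophils, had 39.4, 59.5 and 39.6 CPM in CD62L-neg GMPs, against 30.4, 36.2 and 35.8 CPM in CD62L-neg CMPs. The groups did not overlap, but the log2 fold change of 0.44 did not pass the test (adjusted p = 0.335), and Siglecf carried most of the list's summed level in the CMPs. Il5ra, the receptor chain for interleukin 5, had 9.08, 4.11 and 1.97 CPM in CD62L-neg GMPs, against 0, 1.05 and 0 CPM in CD62L-neg CMPs (log2 fold change 3.82, adjusted p = 0.0265). Its call was lost with DESeq2 (adjusted p = 0.227) and without GMP replicate 1 (0.143), CMP replicate 1 (0.0863) or CMP replicate 3 (0.0942). Siglecf and Il5ra were chosen after their values were seen.

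Basophil and mast cell genes rose as well. These cells share a progenitor in mice and make proteases, histamine and the high-affinity IgE receptor. Prss34, a basophil protease, had 226, 309 and 180.02 CPM in CD62L-neg GMPs, against 1.24, 1.18 and 1.25 CPM in CD62L-neg CMPs (log2 fold change 7.60 ± 0.32, adjusted p = 1.24e-11). Mcpt8, another basophil protease of the mouse, had 111, 164 and 90.1 CPM in CD62L-neg GMPs, against 0.745, 0.131 and 0 CPM in CD62L-neg CMPs (8.59 ± 0.47, adjusted p = 3.42e-10). Both proteases were close to absent in the CMPs. Cpa3, the carboxypeptidase of mast cells and basophils, had 242, 357 and 222 CPM in CD62L-neg GMPs, against 82.9, 53.2 and 36.9 CPM in CD62L-neg CMPs (2.25 ± 0.28, adjusted p = 1.86e-05), so it was already present before the step.

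Hdc, which makes histamine, had 333, 349.96 and 304 CPM in CD62L-neg GMPs, against 50.7, 69.1 and 68.2 CPM in CD62L-neg CMPs (log2 fold change 2.39 ± 0.18, adjusted p = 1.87e-08). Ms4a2, the beta chain of the IgE receptor, had 159.7, 301 and 147 CPM in CD62L-neg GMPs, against 66.1, 57.7 and 50.7 CPM in CD62L-neg CMPs (1.80, adjusted p = 6.03e-05). Cyp11a1, a steroid synthesis enzyme that is also made by basophils and mast cells of mice, had 17.3, 21.4 and 10.9 CPM in CD62L-neg GMPs, against 1.37, 1.44 and 1.11 CPM in CD62L-neg CMPs (3.65, adjusted p = 0.000252). In all of these genes GMP replicate 2 was the highest library, and no GMP library reached into the CMP range. Gzmb and Il1rl1, the receptor for interleukin 33, were not called, with log2 fold changes of -0.90 (adjusted p = 0.289) and -0.39 (adjusted p = 0.306). Of the 13 tested genes of the basophil and mast cell list, 8 rose and 5 were not called, with a median log2 fold change of 2.25 and 6 to 8 genes called when 1 library was left out. Ms4a2, Gzmb and Il1rl1 were chosen after their values were seen.

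**Figure D3:**
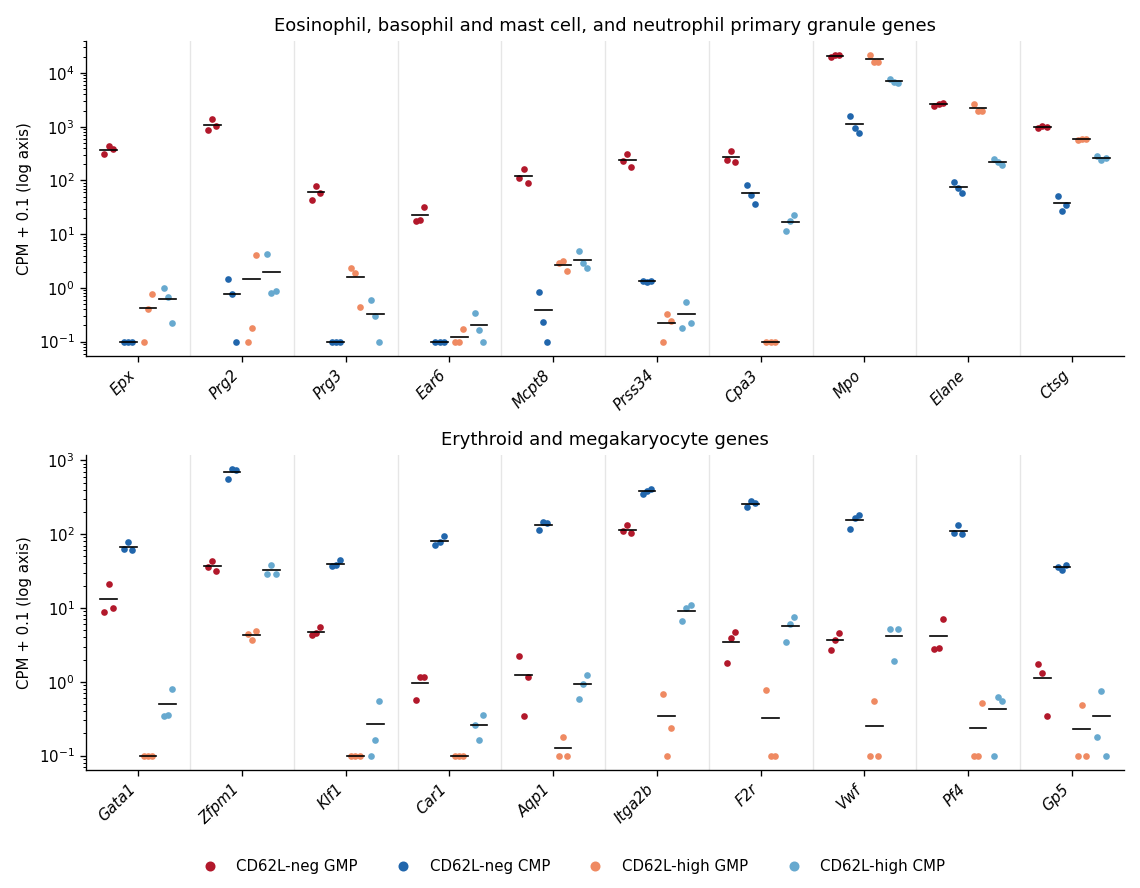
CPM plus 0.1 on a log axis for 20 lineage genes in the 3 libraries (points) of each of 4 populations, with group means as lines. Epx, Prg2, Prg3 and Ear6 are high only in CD62L-neg GMPs among these 4 populations (Epx 305 to 432 CPM, against 0 CPM in CD62L-neg CMPs), while F2r, Vwf and Car1 are high in CD62L-neg CMPs.

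Neutrophil primary granule genes rose together. These granules, formed first in granulocyte development, hold myeloperoxidase and serine proteases. Mpo (myeloperoxidase) had 20280, 21527 and 21728 CPM in CD62L-neg GMPs, against 1609, 947 and 770.5 CPM in CD62L-neg CMPs (log2 fold change 4.26 ± 0.22, adjusted p = 1.96e-10). CMP replicate 1 was the highest of the CMPs and still lay far below every GMP library. Elane (neutrophil elastase) had 2411, 2641 and 2786 CPM in CD62L-neg GMPs, against 93.4, 72.2 and 58.1 CPM in CD62L-neg CMPs (5.13 ± 0.20, adjusted p = 5.68e-12). Ctsg (cathepsin G) had 941, 1046 and 993 CPM in CD62L-neg GMPs, against 51.7, 27.5 and 35.2 CPM in CD62L-neg CMPs (4.70 ± 0.19, adjusted p = 1.15e-11). The libraries of the GMPs were tightly grouped in all of these genes. Ms4a3, a membrane protein of granulocyte-monocyte progenitors, had 320.3, 312 and 341 CPM in CD62L-neg GMPs, against 15.6, 13.3 and 10.5 CPM in CD62L-neg CMPs (4.62 ± 0.17, adjusted p = 5.68e-12).

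Of the 14 tested primary granule genes 13 rose, with a median log2 fold change of 4.27, and the count was 13 without each of the 12 libraries. The remaining gene was Ctsc (cathepsin C, which activates the granule proteases), which was chosen after its values were seen, with a log2 fold change of 0.82 (adjusted p = 0.00132) that did not reach 2-fold. Genes of the later neutrophil granules had a summed 165 to 220 CPM in CD62L-neg GMPs, against 6.38 to 8.57 CPM in CD62L-neg CMPs, and 5 of 9 rose, while 1 fell. Among them, Hp (haptoglobin) had 105, 99.5 and 127 CPM in CD62L-neg GMPs, against 5.34, 4.32 and 3.74 CPM in CD62L-neg CMPs (log2 fold change 4.62). Pglyrp1, a peptidoglycan-binding granule protein, had 38.4, 49.5 and 42.1 CPM in CD62L-neg GMPs, against 0.497, 1.70 and 0.555 CPM in CD62L-neg CMPs (5.55). Lcn2 (lipocalin 2) had 253 counts in CD62L-neg GMPs against 1 count in CD62L-neg CMPs, a ratio of 155 with a counting interval of 27.6 to 6149. S100a8, a subunit of calprotectin, had 9.47, 7.81 and 27.1 CPM in CD62L-neg GMPs, against 0.124, 0 and 0.832 CPM in CD62L-neg CMPs (5.53, adjusted p = 0.000367). The calls of its partner S100a9 (3.49, adjusted p = 0.0356) and of Mmp8, a collagenase with 0 counts in CD62L-neg GMPs against 8 in CD62L-neg CMPs (adjusted p = 0.0316), were each lost without several libraries. For S100a9 these were GMP replicates 1 and 3 and CMP replicates 1 and 2 (adjusted p from 0.0801 to 0.135), and for Mmp8 the 3 GMP libraries and CMP replicates 1 and 3 (0.0517 to 0.169). No count of Ly6g or Retnlg, markers of mature neutrophils that were looked at after their values were seen, was found in any of the 6 libraries.

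The transcription factors of the granulocytic and monocytic lineages rose in part. Cebpe, which drives late granule genes and is needed for eosinophils, had 49.9, 56.8 and 61.1 CPM in CD62L-neg GMPs, against 0.745, 0.523 and 1.52 CPM in CD62L-neg CMPs (log2 fold change 5.91 ± 0.61, adjusted p = 9.36e-07). Gfi1, a repressor that favours granulocytes, had 123, 124 and 139 CPM in CD62L-neg GMPs, against 8.07, 6.28 and 5.96 CPM in CD62L-neg CMPs (4.24 ± 0.20, adjusted p = 6.90e-11). Cebpa, the factor required for GMP formation, had 167, 198 and 155 CPM in CD62L-neg GMPs, against 50.3, 39.8 and 35.5 CPM in CD62L-neg CMPs (2.05 ± 0.16, adjusted p = 2.37e-08). Each of these factors separated the groups without overlap. Spi1 (PU.1) had 132, 152 and 121 CPM in CD62L-neg GMPs, against 54.5, 24.5 and 29.7 CPM in CD62L-neg CMPs (1.90 ± 0.22, adjusted p = 4.20e-06), and Cebpb rose with a log2 fold change of 2.12 (adjusted p = 3.63e-06).

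Of the other factors of this list, 8 were not called and 1 fell, and examples follow. Irf8, which is needed for monocytes and dendritic cells, had 23.3, 21.5 and 13.5 CPM in CD62L-neg GMPs, against 25.1, 7.59 and 6.93 CPM in CD62L-neg CMPs. The groups overlapped through CMP replicate 1, and the log2 fold change was 0.55 (adjusted p = 0.264), or 1.42 without that library (adjusted p = 0.000234). The CD62L-high libraries held far more, with 808, 764 and 737 CPM in GMPs, against 756, 611 and 611 CPM in CMPs. Klf4, another monocyte factor, had 14.2, 11.1 and 6.57 CPM in CD62L-neg GMPs, against 14.9, 22.6 and 16.1 CPM in CD62L-neg CMPs (-0.75, adjusted p = 0.0333, under 2-fold). It was called lower without GMP replicate 1 (-1.01). Rara, the retinoic acid receptor alpha, fell, with 3.44, 2.66 and 2.63 CPM in CD62L-neg GMPs, against 15.02, 11.5 and 11.2 CPM in CD62L-neg CMPs (-2.11, adjusted p = 2.76e-05). In all, 7 of the 16 tested granulocyte-monocyte factors rose.

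Genes of the erythroid and megakaryocytic programme fell. GATA1 binds DNA with FOG1, and a wider complex of GATA factors with TAL1, LMO2 and LDB1 switches on red cell and platelet genes, while KLF1 drives erythroid and GFI1B both lineages. Gata1 had 8.69, 21.2 and 9.85 CPM in CD62L-neg GMPs, against 63.1, 76.9 and 60.6 CPM in CD62L-neg CMPs (log2 fold change -2.34 ± 0.32, adjusted p = 3.89e-05). It was lower in every GMP library but not absent, and GMP replicate 2 kept the most. Zfpm1 had 35.4, 43.2 and 31.1 CPM in CD62L-neg GMPs, against 558, 764 and 735 CPM in CD62L-neg CMPs (-4.23 ± 0.19, adjusted p = 2.95e-11), a far larger fall. Klf1 had 4.15, 4.43 and 5.42 CPM in CD62L-neg GMPs, against 36.5, 37.8 and 45.1 CPM in CD62L-neg CMPs (-3.09 ± 0.37, adjusted p = 1.25e-05). Gfi1b had 4.62, 20.05 and 6.57 CPM in CD62L-neg GMPs, against 65.8, 47.2 and 45.7 CPM in CD62L-neg CMPs (-2.35 ± 0.45, adjusted p = 0.000771), with GMP replicate 2 again the highest of the GMPs.

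Gata2, the GATA factor of stem, mast and basophil cells, fell as well. It had 239, 352 and 213 CPM in CD62L-neg GMPs, against 595, 625 and 627 CPM in CD62L-neg CMPs (log2 fold change -1.20 ± 0.28, adjusted p = 0.00381), and it was chosen after its values were seen. Of the complex partners, Tal1 fell by 1.71 on the log2 scale (adjusted p = 0.000133) and Ldb1 by 1.25 (adjusted p = 1.77e-06). Lmo2 had 163, 147 and 145 CPM in CD62L-neg GMPs, against 298, 246 and 234 CPM in CD62L-neg CMPs, lower in every library but by less than 2-fold (-0.77, adjusted p = 0.000161). Runx1, which acts in all of these lineages, was not called (-0.31, adjusted p = 0.203). The homeobox factor Meis1 fell, with a log2 fold change of -2.997 (adjusted p = 4.02e-09). Of the 17 tested erythroid and megakaryocytic factors, 11 fell and 6 were not called, with a median log2 fold change of -1.68.

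Most erythroid genes fell. Car1 (carbonic anhydrase 1, an early erythroid marker) had 0.470, 1.05 and 1.07 CPM in CD62L-neg GMPs, against 72.0, 77.8 and 94.4 CPM in CD62L-neg CMPs (log2 fold change -6.55 ± 0.31, adjusted p = 3.56e-10). Aqp1, the water channel of red cells, had 2.11, 0.242 and 1.07 CPM in CD62L-neg GMPs, against 113, 145 and 141 CPM in CD62L-neg CMPs (-6.84 ± 0.38, adjusted p = 3.56e-10). Both were almost gone from every GMP library. Epor, the erythropoietin receptor, had 2.35, 0.966 and 0 CPM in CD62L-neg GMPs, against 10.9, 13.3 and 11.0 CPM in CD62L-neg CMPs (-3.39, adjusted p = 0.00741), a call that was lost with DESeq2 (adjusted p = 0.0841). Car2 fell by 3.27 on the log2 scale, and Tfr2, the second transferrin receptor, by 1.34. Tspo2, a membrane protein of erythroblasts, had 3 counts in CD62L-neg GMPs against 240 in CD62L-neg CMPs, so that the CMP level was 130.5-fold that of the GMPs (counting interval 44.1 to 637). Add2, a red cell skeleton protein, had 0 counts in CD62L-neg GMPs against 78 in CD62L-neg CMPs, at least 42.4-fold lower in the GMPs.

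Of the 20 tested erythroid genes 16 fell, 1 rose and 3 were not called, with a median log2 fold change of -4.07. The member that rose was Tfrc, the transferrin receptor that dividing cells in general use to take up iron, with 158, 129 and 156 CPM in CD62L-neg GMPs, against 48.2, 47.6 and 48.1 CPM in CD62L-neg CMPs (log2 fold change 1.62, adjusted p = 1.08e-07). Of the 16 genes of heme synthesis and iron handling, 1 rose, 1 fell and 14 were not called, with 2 higher without GMP replicate 1 or CMP replicate 3, and 2 lower without GMP replicate 1 or 3 or CMP replicate 1 or 3. The gene that rose was Alas1, the rate-limiting heme enzyme of non-erythroid cells, with 613, 657 and 671 CPM in CD62L-neg GMPs, against 39.0, 50.1 and 36.6 CPM in CD62L-neg CMPs (3.95 ± 0.15, adjusted p = 5.68e-12). The gene that fell was Steap3, a ferrireductase of erythroid cells, with a log2 fold change of -1.23 (adjusted p = 0.00109).

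Megakaryocyte and platelet genes fell as well. Vwf (von Willebrand factor) had 2.58, 3.62 and 4.43 CPM in CD62L-neg GMPs, against 118, 166 and 179 CPM in CD62L-neg CMPs (log2 fold change -5.44 ± 0.38, adjusted p = 6.28e-09). Pf4 (platelet factor 4) had 2.66, 2.74 and 6.90 CPM in CD62L-neg GMPs, against 104, 131 and 99.8 CPM in CD62L-neg CMPs (-4.77 ± 0.41, adjusted p = 9.77e-08). In each of these genes the groups were far apart. F2r, the thrombin receptor PAR1, had 1.72, 3.78 and 4.68 CPM in CD62L-neg GMPs, against 236, 277 and 261 CPM in CD62L-neg CMPs (-6.25 ± 0.38, adjusted p = 1.38e-09).

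The receptor complexes of platelets were uneven. Of the glycoprotein Ib-IX-V complex, which binds von Willebrand factor, Gp5 had 1.64, 1.21 and 0.246 CPM in CD62L-neg GMPs, against 35.4, 32.6 and 37.8 CPM in CD62L-neg CMPs (log2 fold change -5.07, adjusted p = 1.16e-05). Gp9 fell by 2.502 on the log2 scale (adjusted p = 0.00397). Gp1ba fell by 2.28 (adjusted p = 0.0112), and its call was lost without GMP replicate 3 (adjusted p = 0.0544). Gp1bb, whose exons overlap those of Sept5 on the same strand, had 1 count in CD62L-neg GMPs against 264 in CD62L-neg CMPs, a CMP level 431-fold that of the GMPs (counting interval 76.6 to 17080). Of the fibrinogen receptor, Itga2b (CD41) remained well expressed, with 109, 131 and 103 CPM in CD62L-neg GMPs, against 351, 389 and 414 CPM in CD62L-neg CMPs (-1.75 ± 0.21, adjusted p = 6.64e-06). Its partner Itgb3 had 7.83, 12.7 and 4.02 CPM in CD62L-neg GMPs, against 66.7, 96.9 and 95.5 CPM in CD62L-neg CMPs (-3.40 ± 0.30, adjusted p = 1.45e-07).

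Of the 26 tested megakaryocyte and platelet genes, 20 fell, 1 rose and 5 were not called, with a median log2 fold change of -4.90. The median was -4.57 with the 1 member that had 0 counts in a group at its bound. The gene that rose was Serpine2, a protease inhibitor chosen after its values were seen, with a log2 fold change of 1.28 (adjusted p = 0.0223). That call was lost with DESeq2 (adjusted p = 0.180) and without any of the 3 GMP libraries, CMP replicate 1 or CMP replicate 3 (adjusted p from 0.0551 to 0.0856). The summed level of the list was 379 to 397 CPM in CD62L-neg GMPs, against 1694 to 1965 CPM in CD62L-neg CMPs.

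The stretches of DNA just before the starts of some of these genes were read because the factors above differ between the gates. GATA factors bind the letters AGATAA or TGATAA, read on either strand as TTATCT or TTATCA. In the 250 bases before the start, RefSeq windows (GRCm38.p6, the mm10 build) held a match in 11.6% of the 9578 tested genes that have a window. A match was found in 8 of 14 erythroid genes, 6 of 21 megakaryocyte and platelet genes, 6 of 12 basophil and mast cell genes, 2 of 7 eosinophil genes and 0 of 12 primary granule genes. Among all genes called, it was found in 16% of the higher genes and 15.7% of the lower genes, so the letters did not separate the directions. The 120 bases before the start are shown for genes of both directions, with every match in capitals. These genes were picked by hand and not by a rule, so they do not show how common a match is.
Klf1 (lower; chr8:84901862-84901981, plus strand, start side on the right): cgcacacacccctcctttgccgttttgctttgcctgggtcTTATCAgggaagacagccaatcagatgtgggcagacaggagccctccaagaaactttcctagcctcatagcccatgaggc
Epor (lower; chr9:21963577-21963696, minus strand): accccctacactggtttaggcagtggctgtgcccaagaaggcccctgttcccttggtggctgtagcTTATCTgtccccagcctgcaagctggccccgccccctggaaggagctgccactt
Gp5 (lower; chr16:30310782-30310901, minus strand): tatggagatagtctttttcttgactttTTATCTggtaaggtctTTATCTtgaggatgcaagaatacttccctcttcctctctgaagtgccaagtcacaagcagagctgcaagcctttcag
Gp1ba (lower; chr11:70639002-70639121, plus strand): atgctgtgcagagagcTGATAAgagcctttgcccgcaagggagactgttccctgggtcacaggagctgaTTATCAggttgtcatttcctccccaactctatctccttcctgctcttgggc
Cpa3 (higher; chr3:20242182-20242301, minus strand): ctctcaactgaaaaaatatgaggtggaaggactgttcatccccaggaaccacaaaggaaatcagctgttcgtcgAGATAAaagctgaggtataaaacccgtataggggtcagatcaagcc
Prss34 (higher; chr17:25298274-25298393, plus strand): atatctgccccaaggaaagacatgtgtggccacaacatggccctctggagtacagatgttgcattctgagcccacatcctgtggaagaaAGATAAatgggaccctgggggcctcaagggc
Epx (higher; chr11:87875537-87875656, minus strand): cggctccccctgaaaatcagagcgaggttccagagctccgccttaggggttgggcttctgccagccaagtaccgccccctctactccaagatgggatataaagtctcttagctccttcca
Gp5 and Gp1ba held 2 matches each, Klf1, Epor, Cpa3 and Prss34 held 1 each, and Epx held 0. A match is a description of the letters and was not tested as a site.

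Genes of stem and multipotent progenitors fell along with the megakaryocytic ones. Slamf1 (CD150), a marker of stem cells and megakaryocyte progenitors, had 0 counts in CD62L-neg GMPs, against 19.6, 14.9 and 13.6 CPM in CD62L-neg CMPs, at least 201-fold lower in the GMPs. Mycn, a MYC family factor of immature progenitors, had 1.80, 0.644 and 0.739 CPM in CD62L-neg GMPs, against 62.5, 68.9 and 76.8 CPM in CD62L-neg CMPs (log2 fold change -6.01 ± 0.36, adjusted p = 4.68e-09). Neither gene overlapped between the groups. Of the 22 tested genes of the list, 16 fell and 6 were not called, with a median log2 fold change of -2.31. Some of these calls rested on CMP replicate 1. Flt3 fell by 2.53 on the log2 scale with all libraries and by 0.51 without it (adjusted p = 0.170). Hlf, a stem cell factor chosen after its values were seen, had 13.2, 9.02 and 9.52 CPM in CD62L-neg GMPs, against 52.6, 19.0 and 16.4 CPM in CD62L-neg CMPs. It fell by 1.47 with all libraries and by 0.74 without CMP replicate 1 (adjusted p = 0.123). Of 8 tested lymphoid progenitor genes, 1 rose and 2 fell, and the 2 that fell, Flt3 and Dntt, lost their calls without CMP replicate 1 (Dntt adjusted p = 0.0719). The gene that rose was Rag2, a subunit of the recombinase, with 60 counts in CD62L-neg GMPs against 2 in CD62L-neg CMPs (adjusted p = 0.0238), and its call was lost without GMP replicate 2, CMP replicate 2 or CMP replicate 3 (adjusted p from 0.0692 to 0.0896), while 4 lymphoid genes rose without CMP replicate 1.

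The genes with the largest falls included several outside these lists. Arhgap12, a regulator of small GTPases, had 0 counts in CD62L-neg GMPs, against 16.3, 20.3 and 14.97 CPM in CD62L-neg CMPs, at least 214-fold lower in the GMPs. Aldh1a1, which makes retinoic acid, had 0 counts in CD62L-neg GMPs, against 11.4, 11.5 and 12.3 CPM in CD62L-neg CMPs, at least 146-fold lower. Gucy1a1, a subunit of the nitric oxide receptor, had 2 counts in CD62L-neg GMPs against 545 in CD62L-neg CMPs, a CMP level 445-fold that of the GMPs (counting interval 123 to 3680). Transcripts of these genes were thus near the limit of detection in the GMPs. Dnah12, an axonemal dynein, had 2 counts in CD62L-neg GMPs against 432 in CD62L-neg CMPs (352-fold, 97.0 to 2919), Agpat3, a phospholipid enzyme, had 3 against 282 (153-fold, 51.9 to 748), and Als2cl had 3 against 254 (138-fold, 46.7 to 674). Robo3, an axon guidance receptor, had 0, 0.322 and 0.410 CPM in CD62L-neg GMPs, against 22.3, 33.9 and 35.4 CPM in CD62L-neg CMPs (log2 fold change -6.92). Samd14, which is expressed in erythroid progenitors, had 2.03, 0.886 and 0.493 CPM in CD62L-neg GMPs, against 99.5, 123 and 139 CPM in CD62L-neg CMPs (-6.70).

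The largest rises outside the granule lists were in genes of other functions. Clec4a2, a C-type lectin of myeloid cells, had 12.1, 11.1 and 21.3 CPM in CD62L-neg GMPs, against 0, 0 and 0.139 CPM in CD62L-neg CMPs, a ratio of 338 on 552 against 1 counts (60.5 to 13390). Hsd11b1, which activates glucocorticoids, had 18.3, 21.7 and 24.0 CPM in CD62L-neg GMPs, against 0, 0.131 and 0.139 CPM in CD62L-neg CMPs, a ratio of 244 (67.3 to 2018). Abca13, a lipid transporter, had 19.8, 19.6 and 38.7 CPM in CD62L-neg GMPs, against 0.372, 0.131 and 0.139 CPM in CD62L-neg CMPs (log2 fold change 6.83). GMP replicate 3 was the highest library in each of these. Prom1 (CD133) had 31.9, 47.3 and 46.2 CPM in CD62L-neg GMPs, against 0.745, 0.262 and 0.277 CPM in CD62L-neg CMPs (6.55).

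Monocyte and macrophage genes rose in part. Of 21 tested genes, 13 rose and 8 were not called, with a median log2 fold change of 1.76 and a summed level of 596 to 641 CPM in CD62L-neg GMPs, against 80.3 to 152 CPM in CD62L-neg CMPs. Ly6c2, which encodes the Ly6C antigen, had 191, 178 and 197 CPM in CD62L-neg GMPs, against 4.47, 3.79 and 3.88 CPM in CD62L-neg CMPs (log2 fold change 5.54 ± 0.24, adjusted p = 1.63e-11). Clec12a, an inhibitory lectin of myeloid cells, had 158, 194 and 193 CPM in CD62L-neg GMPs, against 8.19, 3.79 and 2.36 CPM in CD62L-neg CMPs (5.23, adjusted p = 1.17e-09). Both are also made by granulocyte progenitors. Ly6c2 was higher in CD62L-high GMPs, at 1133, 677 and 744 CPM, against 132, 88.4 and 108 CPM in CD62L-high CMPs. By flow cytometry of the surface protein, the study found all CD62L-neg GMPs among the Ly6C-negative GMPs. The values here are of RNA. Csf1r, the receptor for macrophage colony-stimulating factor, had 21.8, 20.1 and 22.0 CPM in CD62L-neg GMPs, against 6.33, 2.88 and 2.08 CPM in CD62L-neg CMPs (2.48, adjusted p = 9.19e-07), well below the 287 to 353 CPM of CD62L-high GMPs. Slpi, a protease inhibitor, rose by 4.05 on the log2 scale (adjusted p = 1.29e-06). Ly86 (MD-1), an accessory protein of pathogen receptors, had 2.27, 2.82 and 3.04 CPM in CD62L-neg GMPs, against 1.61, 1.31 and 0 CPM in CD62L-neg CMPs. Its call (1.43, adjusted p = 0.0363) was lost without GMP replicate 2 (adjusted p = 0.0796), GMP replicate 3 (0.0952), CMP replicate 2 (0.0563), CMP replicate 3 (0.107) or CD62L-high CMP replicate 3 (0.0505).

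Dendritic cell and major histocompatibility complex class II genes were mostly not called. Of 14 tested, 1 fell and 13 were not called, with a median log2 fold change of 0.18. At an unadjusted p under 0.05 there were 2 higher and 3 lower genes. Over all 14168 genes tested, 4887 had an unadjusted p under 0.05 in this step, in either direction. H2-Ab1, the beta chain of the class II molecule I-A, had 13.8, 15.4 and 8.54 CPM in CD62L-neg GMPs, against 18.3, 17.1 and 14.4 CPM in CD62L-neg CMPs, and the groups overlapped (-0.40, adjusted p = 0.533). The gene that fell was Zbtb46, a factor of classical dendritic cells, with 6 counts in CD62L-neg GMPs against 58 in CD62L-neg CMPs (-3.87, adjusted p = 0.0265), a call lost without GMP replicate 1, GMP replicate 3 or CMP replicate 1 (adjusted p from 0.0915 to 0.146), and 2 genes of the list rose without CMP replicate 1.

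Receptors for growth factors and cytokines moved in both directions. Csf3r, the receptor for granulocyte colony-stimulating factor, had 140.4, 104 and 130.1 CPM in CD62L-neg GMPs, against 29.8, 9.55 and 10.1 CPM in CD62L-neg CMPs (log2 fold change 2.91, adjusted p = 1.33e-06). Csf2rb, the common beta chain for interleukin 3, interleukin 5 and GM-CSF, had 99.9, 149 and 88.1 CPM in CD62L-neg GMPs, against 38.7, 19.1 and 16.9 CPM in CD62L-neg CMPs (2.17, adjusted p = 7.24e-06). Csf2rb has a close paralog, so the split of reads between the copies is uncertain. Il17ra, the interleukin 17 receptor, had 56.5, 75.6 and 49.2 CPM in CD62L-neg GMPs, against 158, 156 and 191 CPM in CD62L-neg CMPs (-1.48, adjusted p = 1.08e-05). Of 23 tested receptors, 10 rose, 5 fell and 8 were not called, and those that fell included Epor, Flt3, Il17ra and Il1r1, the interleukin 1 receptor (-2.59, adjusted p = 1.85e-05).

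Genes of the phagocyte oxidase and of lysosomes were examined next. Of 6 subunits of the phagocyte oxidase, which makes superoxide, 5 rose and 1 was not called. Cybb, the catalytic subunit, had 16.04, 16.5 and 25.9 CPM in CD62L-neg GMPs, against 2.11, 0.523 and 0.416 CPM in CD62L-neg CMPs (log2 fold change 4.21, adjusted p = 1.26e-07). The cytosolic subunits Ncf1 and Ncf4 rose by 3.11 (adjusted p = 5.92e-07) and 2.70 (adjusted p = 2.29e-07) on the log2 scale. Ncf1 had 130.1, 154 and 197 CPM in CD62L-neg GMPs, against 32.7, 9.94 and 12.8 CPM in CD62L-neg CMPs, with CMP replicate 1 again the highest of its group. Cyba, the partner of Cybb in the membrane, rose by 1.22 (adjusted p = 1.95e-05). Of 16 lysosomal genes 6 rose, 1 fell and 9 were not called. Without GMP replicate 3 or CMP replicate 3, 0 lysosomal genes fell. Ctsh (cathepsin H) had 16.5, 13.3 and 25.9 CPM in CD62L-neg GMPs, against 0.745, 0.654 and 0 CPM in CD62L-neg CMPs (5.25, adjusted p = 3.80e-08). Cd63, a tetraspanin of lysosomes and secretory granules, had 242, 305 and 237 CPM in CD62L-neg GMPs, against 33.2, 37.7 and 24.0 CPM in CD62L-neg CMPs (3.05, adjusted p = 4.79e-08), and only 4.25 to 9.47 CPM in CD62L-high GMPs.

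Of 21 innate sensor genes 8 rose, 1 fell and 12 were not called. Nlrp3, an inflammasome sensor, had 14.3, 12.7 and 11.9 CPM in CD62L-neg GMPs, against 1.37, 2.09 and 0.416 CPM in CD62L-neg CMPs (log2 fold change 3.30, adjusted p = 3.43e-07). Cd14, a co-receptor for lipopolysaccharide, rose by 2.37 on the log2 scale (adjusted p = 0.00291). The gene that fell was Cd180, a Toll-like receptor relative, with 2.19, 3.38 and 3.12 CPM in CD62L-neg GMPs, against 20.1, 19.0 and 21.6 CPM in CD62L-neg CMPs (-2.80, adjusted p = 6.82e-07). Of 26 adhesion and chemotaxis genes 8 rose, 2 fell and 16 were not called, and 6 fell without GMP replicate 2. Those that fell were Esam, an adhesion molecule of endothelium, platelets and stem cells, with 4 counts in CD62L-neg GMPs against 139 in CD62L-neg CMPs (adjusted p = 0.00398), and Itga9, an integrin subunit, with 20 against 79 (adjusted p = 0.0282). The call of Itga9 was lost without GMP replicate 1 or 3, CMP replicate 1 or 2, or CD62L-high CMP replicate 2 (adjusted p from 0.0504 to 0.0941). Vcam1, a ligand of the integrin VLA-4, had 41.6, 46.5 and 57.1 CPM in CD62L-neg GMPs, against 0.745, 0.916 and 0.139 CPM in CD62L-neg CMPs (6.29 ± 0.47, adjusted p = 1.90e-08). Cdh1 (E-cadherin) had 45.5, 77.4 and 42.1 CPM in CD62L-neg GMPs, against 10.3, 9.94 and 13.3 CPM in CD62L-neg CMPs (2.30, adjusted p = 1.37e-05), and Ccr1, a chemokine receptor, rose by 4.74 on the log2 scale (adjusted p = 0.000344). The study named 2 further genes for its sequencing. Rgcc, a regulator of the cell cycle, had 102, 97.8 and 102 CPM in CD62L-neg GMPs, against 8.82, 12.6 and 9.98 CPM in CD62L-neg CMPs (3.26, adjusted p = 3.28e-09). Cd81, a tetraspanin, was not called (-0.25, adjusted p = 0.234).

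Genes of protein folding in the endoplasmic reticulum rose broadly. These chaperones serve secreted and granule proteins. Of 21 tested 15 rose and 6 were not called, all 21 had libraries that did not overlap, and the median log2 fold change was 1.41. Over all genes tested 6.75% rose, and the libraries did not overlap in 41.6%. Calr (calreticulin) had 3627, 3336 and 3664 CPM in CD62L-neg GMPs, against 775, 783 and 774 CPM in CD62L-neg CMPs (2.19 ± 0.25, adjusted p = 2.64e-06). P4hb, a protein disulfide isomerase, had 1229, 1380.4 and 1260.2 CPM in CD62L-neg GMPs, against 298, 321 and 273 CPM in CD62L-neg CMPs (2.12 ± 0.14, adjusted p = 2.96e-09), and Sdf2l1 rose by 2.09 on the log2 scale (adjusted p = 5.95e-09). The whole list summed to 10720 to 11770 CPM in CD62L-neg GMPs, against 3546 to 3838 CPM in CD62L-neg CMPs.

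Glycolysis genes rose in part, with 8 higher, 2 lower and 6 not called of 16. Pgam1 had 208, 219 and 225 CPM in CD62L-neg GMPs, against 61.0, 50.1 and 55.5 CPM in CD62L-neg CMPs (log2 fold change 1.97 ± 0.12, adjusted p = 1.65e-09). Gpi1 and Pkm, which catalyse an early and the last step of the pathway, rose by 1.62 (adjusted p = 7.03e-09) and 1.53 (adjusted p = 4.13e-08). The genes that fell were the glucose transporter Slc2a3, by 1.89 (adjusted p = 4.35e-05), and the muscle-type phosphofructokinase Pfkm, by 1.28 (adjusted p = 0.000746).

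Genes of the cell cycle and of ribosome assembly were mostly not called. Of 20 S phase genes 1 rose, Rrm2, a subunit of ribonucleotide reductase, with 108, 114 and 117 CPM in CD62L-neg GMPs, against 47.7, 40.7 and 37.2 CPM in CD62L-neg CMPs (log2 fold change 1.43, adjusted p = 2.57e-07), and 2 rose without GMP replicate 2 or CMP replicate 1. Of 20 genes of the G2 and M phases 0 were called by edgeR and 0 by DESeq2, with 8 higher at an unadjusted p under 0.05. Over all 14168 genes tested, 4887 had an unadjusted p under 0.05 in this step, in either direction. Counts at an unadjusted p here and below are to be read beside that number. Mki67, the proliferation antigen Ki-67, had 768, 681 and 837 CPM in CD62L-neg GMPs, against 825, 929 and 1072 CPM in CD62L-neg CMPs, and the groups overlapped (-0.31, adjusted p = 0.197). Of 19 ribosome biogenesis genes 0 were called by either tool, with 5 higher at an unadjusted p under 0.05. Myc had 338, 350.4 and 346 CPM in CD62L-neg GMPs, against 349, 368 and 375 CPM in CD62L-neg CMPs (-0.08, adjusted p = 0.720). Of 19 genes of cholesterol synthesis, edgeR called 0 and DESeq2 called 1 lower, with 3 at an unadjusted p under 0.05, and edgeR called at most 1 in a direction when a library was left out.

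Immediate early and heat shock genes, which respond within minutes to handling and stress as well as to growth factors, were lower in CD62L-neg GMPs. Their summed level was 3251 to 4093 CPM in CD62L-neg GMPs, against 6482 to 8131 CPM in CD62L-neg CMPs, and 8 of 18 fell. Nr4a1 (NUR77), an orphan nuclear receptor, had 7.51, 8.29 and 6.16 CPM in CD62L-neg GMPs, against 193, 202 and 145 CPM in CD62L-neg CMPs (log2 fold change -4.62 ± 0.25, adjusted p = 3.42e-10). Egr1 had 162, 161 and 105 CPM in CD62L-neg GMPs, against 341, 486 and 411 CPM in CD62L-neg CMPs (-1.53, adjusted p = 0.000253). Among the 22 tested genes of the interferon response 1 rose, 3 fell and 18 were not called, and 5 fell without CD62L-high GMP replicate 1. Ifi204, a sensor of nucleic acids, rose on 47 counts in CD62L-neg GMPs against 2 in CD62L-neg CMPs (adjusted p = 0.0339), and lost its call without GMP replicate 2 or 3 or CMP replicate 2 or 3 (adjusted p from 0.0660 to 0.155). Its relative Ifi203 fell by 1.23 (adjusted p = 0.00116), and by 0.89, under 2-fold, without CMP replicate 1. The antiviral genes Mx2 (-3.66, adjusted p = 0.0167) and Rsad2 (-1.77, adjusted p = 0.0486) fell as well. The call of Mx2 was lost without GMP replicate 1, GMP replicate 2 or CMP replicate 2 (adjusted p from 0.0594 to 0.0643), and that of Rsad2 without each of the 6 libraries compared and each CD62L-high CMP library (0.0553 to 0.189).

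Markers of other cell types were examined in both groups. Of 8 B cell genes 2 had enough counts to be tested, of which edgeR called 0 and DESeq2 1 lower, with 1 lower at an unadjusted p under 0.05 and a summed level of 8.22 to 16.9 CPM in CD62L-neg GMPs, against 6.79 to 12.4 CPM in CD62L-neg CMPs. Of 10 T and NK cell genes 1 was tested, and 0 were called by edgeR, by DESeq2 or at an unadjusted p under 0.05, with a summed level of 0 to 2.22 CPM in CD62L-neg GMPs, against 0.654 to 1.39 CPM in CD62L-neg CMPs. Ms4a1 and Cd3e had 0 counts in all 6 libraries. Late red cell genes summed to 9.36 to 21.3 CPM in CD62L-neg GMPs, against 23.7 to 26.9 CPM in CD62L-neg CMPs, where 1 of 3 tested genes fell, and 0 without GMP replicate 1 or 3 or CMP replicate 2 or 3. Of 8 endothelial and stromal genes 3 were tested and 2 fell. Kdr, a receptor for vascular endothelial growth factor, had 2 counts in CD62L-neg GMPs against 216 in CD62L-neg CMPs (176-fold, 48.2 to 1464), and Col1a2 had 1 against 137 (223.5-fold, 39.5 to 8892). Cdh5, a defining endothelial marker, had 0 counts in CD62L-neg GMPs against 2 in CD62L-neg CMPs. The part of these cells in the results was not tested. Ms4a1, Cd3e and Cdh5, and the list members named to complete a small count (S100a8, S100a9, Mmp8, Esam, Itga9, Zbtb46, Il1r1, Cyba, Ifi203, Ifi204, Mx2, Rsad2 and Rag2), were chosen after their values were seen.

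**Figure D4:**
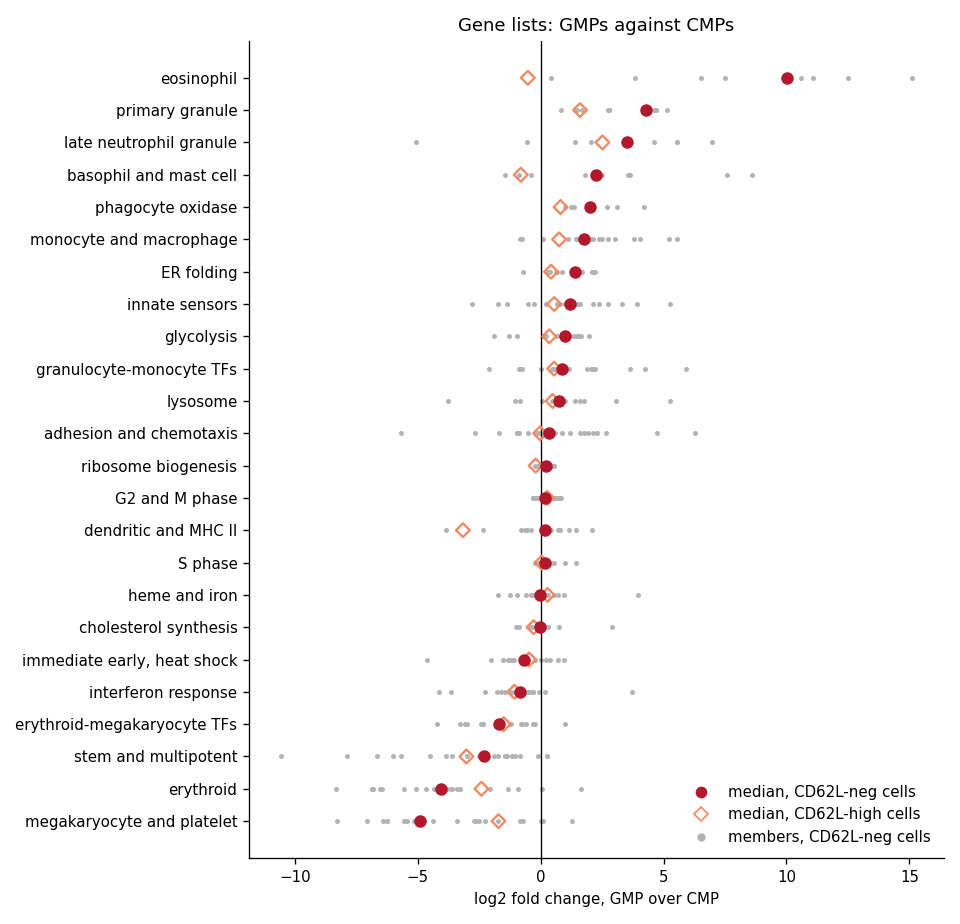
Log2 fold changes of GMPs over CMPs for the tested members of 24 gene lists in CD62L-neg cells (grey points), with the list medians in CD62L-neg cells (filled circles) and in CD62L-high cells (open diamonds). The eosinophil median is 10.03 in CD62L-neg cells and -0.53 in CD62L-high cells, and the megakaryocyte and platelet median is -4.90 and -1.72.

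The step in CD62L-neg cells was then set beside the same step in CD62L-high cells, which uses other libraries. Between CD62L-high GMPs and CD62L-high CMPs, 379 genes were higher (2.68% of genes tested) and 790 lower (5.58%), or 311 and 743 without the CD62L-high GMP library that stood apart. Of the 957 genes that rose in the CD62L-neg step, 240 also rose in the CD62L-high step, which is 25.1% of the CD62L-neg set and 63.3% of the genes higher in CD62L-high GMPs, and 19 fell. Of the 943 that fell, 327 also fell (34.7%, and 41.4% of the genes lower in CD62L-high GMPs) and 10 rose. A test of the difference between the steps, made at an adjusted p under 0.05, was positive for 861 genes (6.08%) and negative for 431 (3.04%), or 9.12% in either direction. The counts of list members with a difference are to be read beside these shares. Without the CD62L-high GMP library that stood apart it was positive for 1053 and negative for 518. Of the 957 genes that rose, 452 had a positive difference and 4 a negative one, and of the 943 that fell, 207 had a negative and 46 a positive difference. The CD62L-neg step that chose these genes is also part of the difference. An excess in the direction of the call therefore follows in part from the choice.

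**Figure D5:**
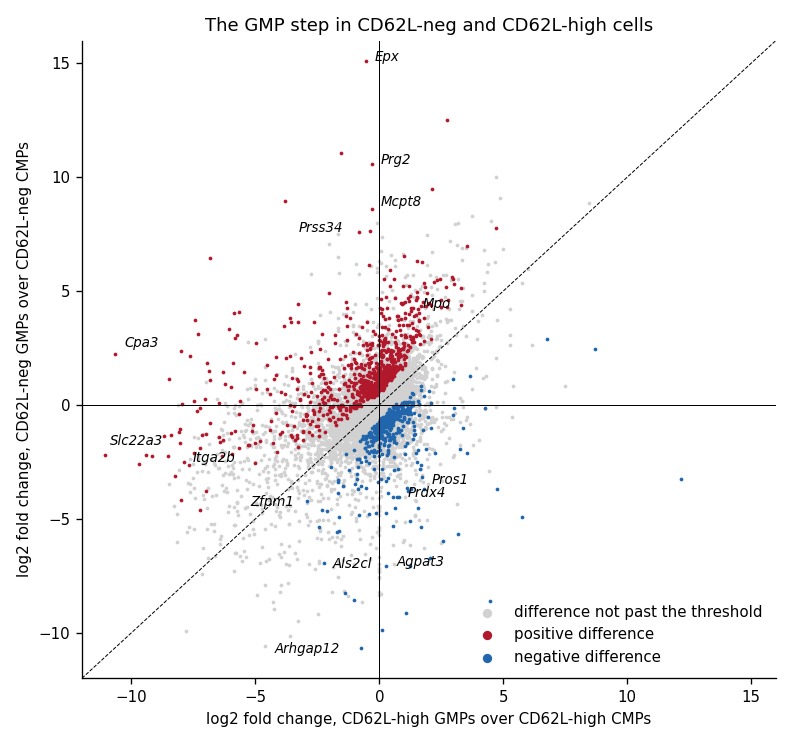
Each point is 1 of 14168 genes, with its log2 fold change in the CD62L-high step on the horizontal axis and in the CD62L-neg step on the vertical axis. Red points mark the 861 genes with a positive difference between the steps and blue points the 431 with a negative one, and points far from the origin on either axis often rest on 3 or fewer counts in a group.

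Of the 9 tested eosinophil genes, 4 had a positive difference between the steps, and 2 without CD62L-high CMP replicate 1. Epx had 0, 0.304 and 0.686 CPM in CD62L-high GMPs, against 0.890, 0.585 and 0.127 CPM in CD62L-high CMPs (log2 fold change -0.53), and its difference between the steps passed the test (adjusted p = 3.02e-06). The differences of Prg2 (adjusted p = 2.04e-05), Mcpt8 (1.06e-07) and Prss34 (4.53e-05) passed as well, and the differences of these 4 genes held without each of the 12 libraries. Differences of Prg3 and Ear6 were lost without CD62L-high CMP replicate 1, and that of Ear2 (adjusted p = 0.109) did not pass. The test could not judge Ear1 (adjusted p = 0.99985, SE 13667), which had 0 counts in both CD62L-neg and CD62L-high CMPs. Cpa3 had 0 counts in every CD62L-high GMP library, against 11.3, 17.4 and 22.5 CPM in CD62L-high CMPs, so it fell there while it rose in CD62L-neg GMPs (difference adjusted p = 1.54e-07). Cd63 was not called in the CD62L-high step, with 9.47, 4.25 and 6.52 CPM in CD62L-high GMPs, against 4.61, 8.52 and 7.16 CPM in CD62L-high CMPs (difference 3.07, adjusted p = 2.04e-05). Of the list of 13 basophil and mast cell genes, 6 had a positive difference.

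Of the 14 primary granule genes, 13 rose in the CD62L-neg step and 11 in the CD62L-high step. Mpo had 21364, 16348 and 16369 CPM in CD62L-high GMPs, against 7719.9, 6814 and 6619 CPM in CD62L-high CMPs (log2 fold change 1.35), and the difference from the CD62L-neg step was 2.90 ± 0.28 (adjusted p = 3.25e-06). The CD62L-neg and CD62L-high GMPs thus ended at similar levels of Mpo from unequal CMP levels. Of the 14 primary granule genes 11 had a positive difference, and 1, Ctsc, a negative one that was lost without 5 of the 12 libraries. Of the 9 late granule genes 3 had a positive difference, Hp, Pglyrp1 and Lcn2, and that of Lcn2 was lost without 7 of the 12 libraries. Gfi1 was not called in CD62L-high cells, with 16.8, 26.1 and 24.2 CPM in GMPs, against 19.4, 24.1 and 22.9 CPM in CMPs, and its difference was 4.23 ± 0.26 (adjusted p = 4.67e-08). Cebpe had 0.838, 1.90 and 7.07 CPM in CD62L-high GMPs, against 1.94, 3.71 and 1.71 CPM in CD62L-high CMPs (difference 5.48, adjusted p = 0.000207). Of the 21 endoplasmic reticulum genes 14 had a positive difference, against 6.08% of all genes tested.

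Genes that fell in the CD62L-neg step and not in the CD62L-high step were also found. Itgb3 had 18.8, 12.7 and 16.1 CPM in CD62L-high GMPs, against 18.4, 14.9 and 16.5 CPM in CD62L-high CMPs (difference -3.33, adjusted p = 3.27e-05). Arhgap12 had 3.85, 10.02 and 4.80 CPM in CD62L-high GMPs, against 11.7, 9.69 and 9.70 CPM in CD62L-high CMPs, and its difference passed the test (adjusted p = 5.24e-06). Prdx4, a peroxiredoxin of the endoplasmic reticulum, had 0.626, 1.29 and 0.575 CPM in CD62L-neg GMPs, against 11.5, 18.4 and 11.4 CPM in CD62L-neg CMPs. It had 51.8, 29.1 and 25.3 CPM in CD62L-high GMPs, against 23.3, 18.0 and 22.5 CPM in CD62L-high CMPs (difference -4.77 ± 0.48, adjusted p = 4.60e-06). Pros1 (protein S) had 1.25, 0.161 and 0.739 CPM in CD62L-neg GMPs, against 5.71, 4.84 and 9.01 CPM in CD62L-neg CMPs, and 12.2, 7.44 and 12.8 CPM in CD62L-high GMPs, against 2.02, 3.45 and 4.31 CPM in CD62L-high CMPs, so the directions were opposite (difference -4.88, adjusted p = 0.000243). Lpl (lipoprotein lipase) had 17.3, 18.7 and 15.3 CPM in CD62L-high GMPs, against 1.70, 1.04 and 1.65 CPM in CD62L-high CMPs. In CD62L-neg cells Lpl had 0, 0.0805 and 0.410 CPM in GMPs, against 0.993, 0.654 and 0.555 CPM in CMPs, and that fall (-2.13, adjusted p = 0.0431) was lost without 9 of the 12 libraries (adjusted p from 0.0504 to 0.143), while the difference of -5.67 held without each of them.

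Other genes fell in both steps but less in CD62L-neg cells. Itga2b had 0.586, 0 and 0.137 CPM in CD62L-high GMPs, against 6.55, 9.82 and 10.7 CPM in CD62L-high CMPs (difference 3.50 ± 0.51, adjusted p = 0.000197). Gata2 had 4.61, 7.36 and 1.58 CPM in CD62L-high GMPs, against 28.4, 42.8 and 41.7 CPM in CD62L-high CMPs (difference 1.87, adjusted p = 0.00864). Slc22a3, a transporter of organic cations including histamine, had 42.6, 51.4 and 40.5 CPM in CD62L-neg GMPs, against 196, 201 and 213 CPM in CD62L-neg CMPs. It had 0 counts in CD62L-high GMPs, against 13.02, 21.8 and 32.6 CPM in CD62L-high CMPs (difference adjusted p = 9.14e-06). CD62L-neg GMPs thus held more of these transcripts than CD62L-high CMPs did. H2-Ab1 had 4.94, 12.4 and 26.8 CPM in CD62L-high GMPs, against 72.6, 122 and 149 CPM in CD62L-high CMPs (difference 2.55, adjusted p = 0.00712), and of the 14 dendritic cell and class II genes 11 fell in the CD62L-high step, against 1 in the CD62L-neg step. These counts were set by separate tests, and the difference itself passed for 5 of the 14.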

How the data were processed

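RNA from sorted C57/B6 bone marrow progenitors was sequenced, and the authors deposited a table of raw read counts per gene, made with bcl2fastq, Trim Galore, HISAT2 on mm10 and HTSeq. Versions, annotation and strand setting are not given in the sources used here. Without a known strand setting, reads of genes whose exons overlap cannot be told apart, which applies to 32 of the 138 genes named. The labels and the study's methods name different library kits. Gene IDs were matched to GENCODE M21 (99.12%).

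The deposited counts were fitted in edgeR 4.0.16 (R 4.3.3) with TMM factors, filterByExpr and 1 mean per group over 12 libraries (CD62L-neg and CD62L-high GMPs and CMPs), so that all groups shared 1 estimate of the spread. The quasi-likelihood F test (two-sided) gave p-values, adjusted over 14168 genes by Benjamini-Hochberg. Each SE of a log2 fold change is its size divided by the square root of F. It therefore rests on the spread estimated over the 12 libraries, and it has no meaning where F is very small, as for Ear1. Calls needed an adjusted p under 0.05 and a fold over 2. A gene with counts in a single group passed the filter through that group and could only be called higher there. The difference of the steps was the interaction of gate and CD62L, called at an adjusted p under 0.05. Library totals ran from 6145834 to 15263573 counts over the series. CPM is not scaled for gene length, so levels of different genes were not compared. Ratios on 3 or fewer counts carry a 95% interval, and intervals and bounds cover counting error only. On simulated counts at these depths for the 14168 genes, the step test recovered 22.4% of 2-fold, 68.7% of 3-fold and 69.7% of 4-fold changes.

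Genes were named by rule: the 12 largest changes each way among stable calls, sort genes and genes the study names, up to 4 stable calls per list and direction, and the 6 largest differences of steps each way. The members and gene lists were chosen with earlier results of these data known. Alternatives were other size factors, no filter, DESeq2 1.42.0, other library sets, a replicate block, other call rules and leaving out each library. Bulk GMPs, bulk CMPs and CD62L-int GMPs entered only the distances and the fit over 21 libraries. Some genes that the rule names are not reported here.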

Additional observations from a re-analysis of the deposited data

Results flagged for a closer look

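Of the 138 genes named, the fold change of GMPs over CMPs differed between CD62L-neg and CD62L-high cells in 75, with a positive difference in 56 and a negative one in 19, while 63 did not pass the test (edgeR's interaction of gate and CD62L, adjusted p under 0.05 over all genes tested). Over all 14168 genes tested the share was 9.12%. Many of the 138 were named for the size of their step or of this difference. Their higher share follows in part from that choice and is not a result about them. The difference held in 63 without each of the 12 libraries. Each value below is the log2 fold change in CD62L-neg cells minus that in CD62L-high cells, and values of genes with 3 or fewer counts in a group depend on the prior count and bound nothing.

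Among eosinophil, basophil and mast cell genes the differences were Epx (15.64), Prg3 (9.77), Ear6 (12.62), Prg2 (10.89), Mcpt8 (8.89), Prss34 (8.41), Cpa3 (12.93), Cyp11a1 (7.22), Hdc (1.25) and Ms4a2 (2.96). Those of Prg3 and Ear6 were lost without CD62L-high CMP replicate 1, that of Cyp11a1 without CD62L-high CMP replicate 3, and that of Ms4a2 without CD62L-high CMP replicate 2. In granule genes they were Mpo (2.9), Elane (1.83), Ctsg (3.56), Ms4a3 (1.86), Lcn2 (3.45), Pglyrp1 (4.97), Hp (2.11), Ctsc (-0.85) and Slpi (2.44), and those of Lcn2 and Ctsc were lost without 7 and 5 of the 12 libraries.

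In transcription factors the differences were Spi1 (1.25), Cebpa (1.31), Cebpe (5.48), Gfi1 (4.23), Klf4 (-2.11), Rara (-2.48), Zfpm1 (-1.32), Ldb1 (-0.82), Gata2 (1.87), Myc (0.99), Nr4a1 (-2.3) and Egr1 (1.56), and that of Egr1 was lost without CD62L-high CMP replicate 3. In receptors, adhesion molecules and genes of the sort they were Fcgr3 (1.1), Fcgr2b (1.32), Cd34 (2.05), Csf1r (1.74), Csf2rb (1.31), Csf3r (2.67), Il17ra (-1.37), Itga2b (3.5), Itgb3 (-3.33), Itgam (2.96), Vcam1 (4.58), Ly6c2 (2.58), Clec12a (4.28), Prom1 (5.55), Cd180 (-2.91), Tfrc (1.59) and Tfr2 (2.24), and that of Csf2rb was lost without 6 of the 12 libraries.

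In phagocyte, antigen presentation and recombination genes they were Ncf1 (2.59), Ncf4 (1.76), Nlrp3 (2.47), Ctsh (4.06), Cd63 (3.07), H2-Ab1 (2.55) and Rag2 (9.72). In metabolism, protein folding and iron handling they were Pgam1 (1.22), Gpi1 (1.01), Pkm (1.03), Calr (2.03), P4hb (1.31), Sdf2l1 (1), Alas1 (2.46), Steap3 (-1.92), Lpl (-5.67), Prdx4 (-4.77), Agpat3 (-7.37) and Hsd11b1 (3.06), and that of Hsd11b1 was lost without 11 of the 12 libraries. In the remaining genes they were Arhgap12 (-9.95), Gucy1a1 (-7.54), Als2cl (-4.72), Samd14 (-8.74), Slc22a3 (8.9), Pros1 (-4.88), Rgcc (1.69) and Serpine2 (-2.39), and those of Gucy1a1 and Samd14 were lost without CD62L-high GMP replicate 3 and CD62L-high GMP replicate 1, while that of Serpine2 was lost without 6 of the 12 libraries.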

How the results depend on the processing

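With 957 higher and 943 lower genes in the CD62L-neg step, other processing gave 892 and 990 with DESeq2's size factors, 1007 and 1013 with no filter, 942 and 1127 with DESeq2, 941 and 1023 with the 6 libraries alone, 911 and 927 with all 21 libraries, and 955 and 944 without the 3 gene models that resemble ribosomal RNA. Counts moved by more than 1.5 times with an adjusted p alone, to 1888 and 1577, and with a test against a fold of 2 (glmTreat), to 453 and 361, because these change what is called. DESeq2 gave 666 negative differences between the steps, against 431. Leaving out 1 library gave 841 to 984 higher and 785 to 1074 lower genes, 311 to 430 and 638 to 785 in the CD62L-high step, and 639 to 1053 positive and 317 to 518 negative differences. No direction reversed in the results examined. Of the 138 genes named, the test against a fold of 2 lost 23 calls and an adjusted p alone added 5.

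The replicate numbers are not stated to pair the libraries. In deviations from their group means, same-numbered CD62L-neg GMP and CMP libraries had correlations of -0.0632, 0.0504 and 0.0523. These values show no pairing but cannot exclude a shared origin, since such libraries need not deviate alike. With replicate as a block, 939 genes were higher and 896 lower, and Lpl, Ifi204 and Rsad2 lost their calls. Depth limits genes near 3 counts per group, whose folds are given as bounds or intervals. The CD62L-neg CMP libraries are the shallower ones, and CMP replicate 1 decides Flt3, Dntt and Hlf.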
